A study of Mus musculus with 12 samples.

Results

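Iron handling was described here through 10 genes that take up, store, export or salvage iron: Hmox1, Fth1, Ftl1, Ncoa4, Slc40a1, Tfrc, Slc11a1, Slc11a2, Hp and Spic. They were selected by symbol, with earlier results of these data known, and all 10 were found among the 24346 symbols of each deposited table. RNA-seq had been performed on myeloid-derived suppressor cells (MDSCs), immature myeloid cells that suppress T cells, sorted from orthotopic Hepa 1-6 tumors. Hepa 1-6 is a mouse hepatoma line, placed here in the liver of wild-type female C57BL/6J mice aged 6 to 8 weeks.

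Both MDSC subsets were sequenced. Monocytic MDSCs (M-MDSCs) were sorted as CD11b+ Ly-6C high Ly-6G- cells and polymorphonuclear MDSCs (PMN-MDSCs) as CD11b+ Ly-6C intermediate Ly-6G+ cells. Each subset came from mice given vehicle, MS-275 or CXD101, which both inhibit histone deacetylases 1 to 3, so there were 6 groups of 2 libraries and 12 libraries in all. According to the methods, each drug was injected intraperitoneally at 5 mg/kg once a day for 10 days from day 10 after inoculation, tumors were collected on day 21, and mice were included when MDSCs exceeded 20% in blood. That schedule is given for M-MDSCs, whereas sequencing of PMN-MDSCs is not mentioned in the text of the study. A figure legend of the study calls the MDSC samples for RNA-seq biological replicates, but the labels do not say whether the libraries of a group came from separate animals, and the p-values below measure the spread between these libraries.

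Cells keep free iron low by balancing entry, storage and exit. Transferrin-bound iron enters through the transferrin receptor (Tfrc), surplus iron is held in ferritin, a shell of heavy (Fth1) and light (Ftl1) chains, and ferroportin (Slc40a1) is the known cellular iron exporter. Macrophages also recover iron from hemoglobin: haptoglobin (Hp) binds it in plasma, and heme oxygenase 1 (Hmox1) opens the heme ring and frees the iron. When iron is scarce, iron regulatory proteins bind hairpins called iron responsive elements, which block translation when they lie in a 5′ UTR and protect the transcript from decay when they lie in a 3′ UTR.

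Such hairpins are shown because they mark transcripts of the 10 genes that can share this known control. RNA-seq does not measure translation, on which 5′ UTR hairpins act. A 3′ UTR hairpin acts on transcript level, but its part in the Tfrc values below was not tested. The search on the sense strand asked for a loop CAGTGN with a last base other than G, closed by a stem of 5 base pairs (G:U pairs allowed) with an unpaired C before the stem. In GENCODE transcripts of the GRCm38 build, a match was found in the 5′ UTR of 0.104% of 21181 genes and in the 3′ UTR of 0.520% of 21166 genes. Capitals mark the 6 bases of the loop.
Fth1, 5′ UTR, chr19:9982733-9982760, plus strand: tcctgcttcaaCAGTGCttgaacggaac
Ftl1, 5′ UTR, chr7:45459779-45459806, minus strand: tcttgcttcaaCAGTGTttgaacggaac
Slc40a1, 5′ UTR, chr1:45925465-45925492, minus strand: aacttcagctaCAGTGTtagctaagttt
Tfrc, 3′ UTR, chr16:32631220-32631247, plus strand: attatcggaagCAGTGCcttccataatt
Tfrc, 3′ UTR, chr16:32631599-32631626, plus strand: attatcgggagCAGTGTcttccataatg
Tfrc, 3′ UTR, chr16:32631664-32631691, plus strand: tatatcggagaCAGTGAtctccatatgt
Tfrc, 3′ UTR, chr16:32631711-32631738, plus strand: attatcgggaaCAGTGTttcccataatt
A match thus lay before the coding sequence in 4 of 5 coding transcripts of Fth1, 2 of 3 of Ftl1 and 1 of 4 of Slc40a1. The Tfrc matches lay behind it, in 1 of 3 coding transcripts. The FPKM values, given per gene, do not separate these transcripts. No match to this pattern was found in the UTRs of the other 6 genes. The pattern is strict and can miss hairpins, so this does not show that those genes lack one.

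Levels are FPKM, fragments per kilobase of transcript relative to library size, as the authors deposited them. A gene was called changed when limma on log2(FPKM + 1) gave a Benjamini-Hochberg adjusted p under 0.05 over all genes tested and a fold change above 1.5. Only a called gene is said to have risen or fallen, and a fold change is on the log2(FPKM + 1) scale, which understates changes of low genes. Of the 10 genes, 9 passed the filter of 1 FPKM in at least 2 libraries, Spic being the exception.

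Markers followed the labels in part. Ccr2, a monocyte receptor, was at 124 to 147 FPKM in M-MDSCs and 27.5 to 40.7 FPKM in PMN-MDSCs, and Cxcr2, a neutrophil receptor, at 2.81 to 20.8 and 80.8 to 327 FPKM, in the order of the labels. Csf1r, a receptor of monocytes and macrophages, was not in that order, at 123 FPKM in both vehicle M-MDSC libraries and at 160 and 145 FPKM in vehicle PMN-MDSCs. Ly6g, on the neutrophil list, was not matched to a symbol of the deposited values, so the sort could not be checked on it. Marker sums moved with treatment within each subset, S100a8 and S100a9 making up 79.8% to 94.4% of the neutrophil sum in each library. In PMN-MDSCs the neutrophil list summed to 71842 to 97698 FPKM under vehicle and 255865 to 296335 FPKM under the drugs, and the macrophage list to 280 to 309 FPKM and 156 to 178 FPKM. The neutrophil sum in M-MDSCs was 12897 to 13567 FPKM under vehicle and 25449 to 30372 FPKM under the drugs, and the macrophage sum was 243 to 252 FPKM under vehicle, 160 to 175 FPKM after MS-275 and 231 to 262 FPKM after CXD101. Of the 14 genes of the macrophage list, 11 passed the filter in each subset. The Kupffer cell genes Timd4 and Clec4f were listed at 0 in all 12 libraries and do not stand for that list. In bulk RNA, fewer cells of a type and less RNA per cell cannot be told apart, and the part of these marker shifts in the results below was not tested. Erythroid markers summed to at most 1.0 FPKM, lymphocyte markers to at most 3.89 FPKM and hepatocyte markers to at most 3.39 FPKM, with Alb, the main liver product, at 0.0528 FPKM in 1 library and listed at 0 in the other 11.

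The largest differences among these genes lay between the subsets, and Slc11a1 and Hp carried the largest drug effects. Under vehicle, PMN-MDSCs exceeded M-MDSCs in 4 of the 9 tested genes (Slc11a1, Slc40a1, Fth1 and Ftl1) and were called lower in none. Of all 11662 genes, 34.0% were called, 17.2% higher and 16.8% lower, and 62.0% passed the adjusted p alone, as did 8 of the 9. In M-MDSCs, 3 of 9 were called after MS-275 (Tfrc rose, Hp and Slc11a1 fell) and 2 after CXD101 (Hp and Slc11a1 fell). Among all 11078 genes there, 17.5% were called after MS-275, 10.1% higher and 7.32% lower, and 8.13% after CXD101, 5.14% higher and 3.0% lower. In PMN-MDSCs, 3 of 9 were called after MS-275 (Fth1 rose, Slc11a1 and Slc11a2 fell) and 1 after CXD101 (Slc11a1 fell). The shares of all 11184 genes there were 28.7% after MS-275, 14.6% higher and 14.2% lower, and 21.4% after CXD101, 11.9% higher and 9.54% lower, so the counts in PMN-MDSCs were near or below the share of all genes. By the adjusted p alone, 5 of 9 passed after each drug in M-MDSCs (46.4% of all genes after MS-275 and 23.1% after CXD101) and 7 of 9 after each in PMN-MDSCs (53.7% and 45.3%). Both drugs were compared with the same vehicle libraries, so their effects are given side by side and are not independent of each other.

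**Figure D1:**
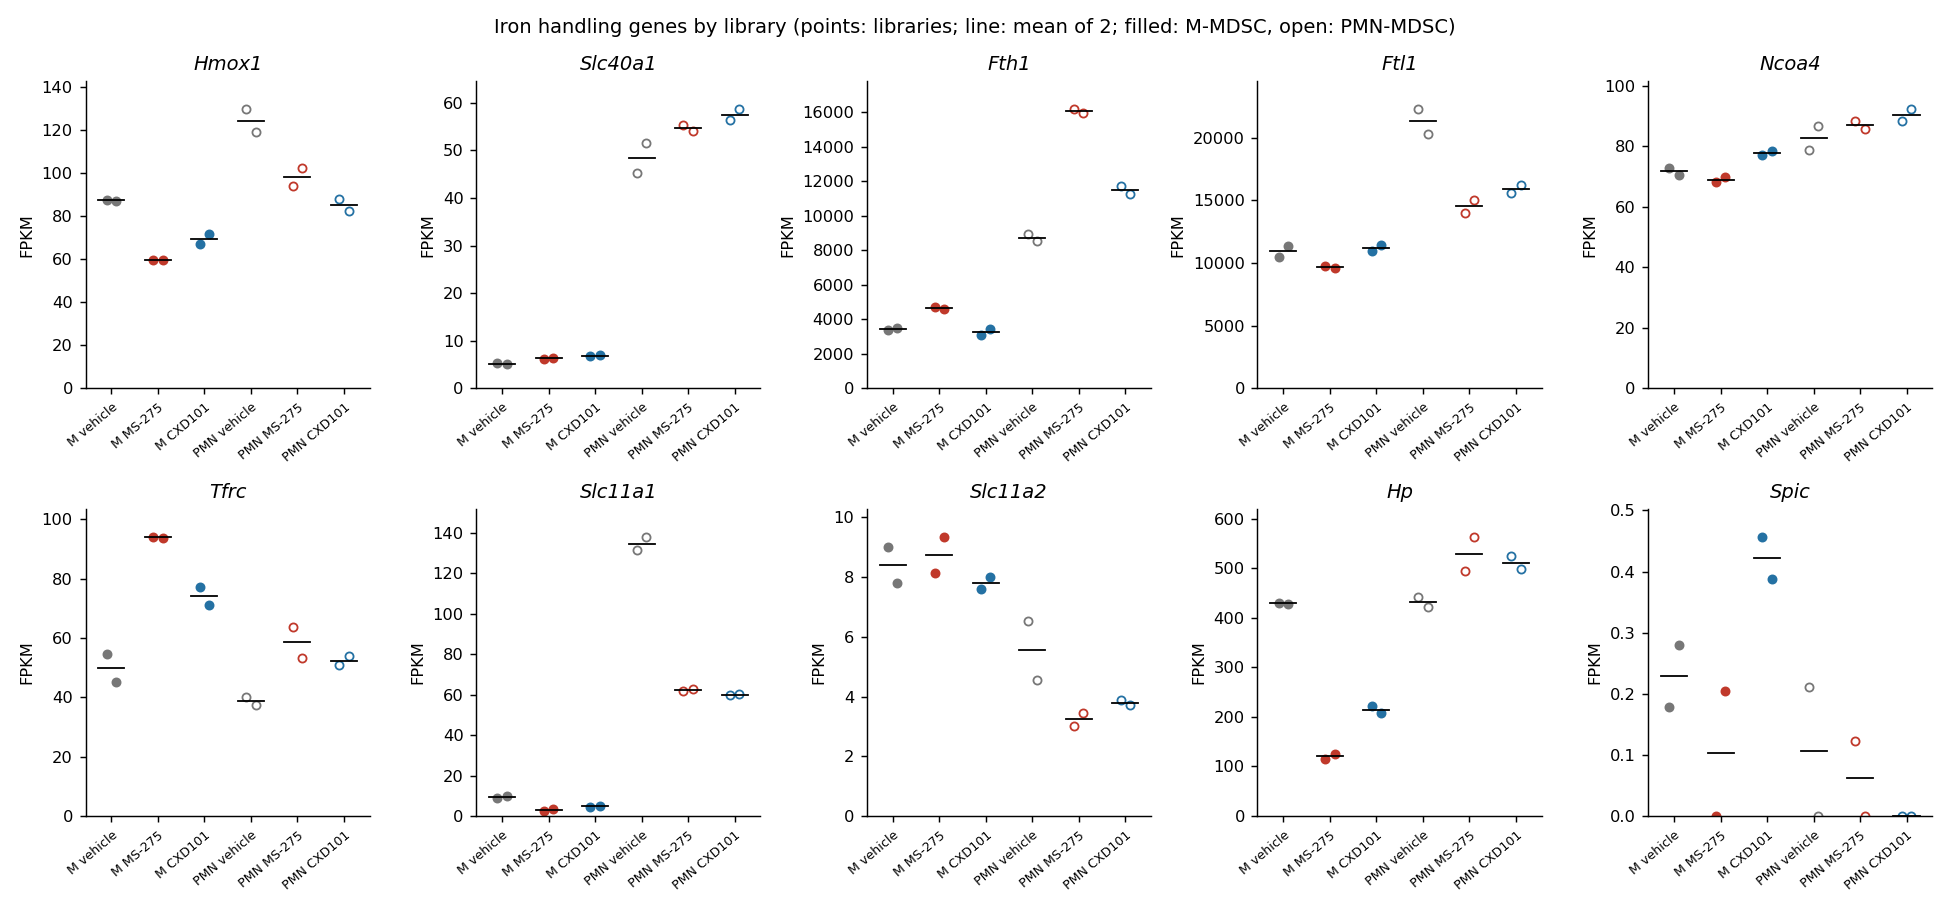
Level of the 10 iron handling genes in FPKM (vertical axes, linear and starting at 0, each with its own scale) in the 6 groups; points are libraries, lines the mean of 2, filled points M-MDSCs and open points PMN-MDSCs. Slc40a1 and Slc11a1 were several-fold higher in every PMN-MDSC library than in any M-MDSC library, whereas Hp was low only in the drug-treated M-MDSCs and Spic did not reach 0.5 FPKM.

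Heme breakdown came first in the order of iron recovery. Hmox1 (GRCm38 chr8:75093621-75100589, plus strand) was at 87.6 and 87.2 FPKM in vehicle M-MDSCs, 59.4 and 59.6 FPKM after MS-275, and 67.1 and 71.9 FPKM after CXD101. In PMN-MDSCs it was at 129.8 and 119 FPKM under vehicle, 93.9 and 103 FPKM after MS-275, and 88.2 and 82.6 FPKM after CXD101. Every drug-treated library was below both vehicle libraries of its own subset. The log2 fold changes were -0.55 (SE 0.059) after MS-275 and -0.33 (SE 0.059) after CXD101 in M-MDSCs, and -0.34 (SE 0.077) and -0.54 (SE 0.077) in PMN-MDSCs. All 4 passed the adjusted p (limma, Benjamini-Hochberg adjusted p from 1.93e-04 to 0.00735) but none passed the fold limit, so Hmox1 was not called. With libraries scaled to equal totals, which shifted the median gene by -0.35 and -0.34, both PMN-MDSC values were called (-0.69 and -0.89), and without the vehicle library 2 the CXD101 value there was called (-0.60). The vehicle PMN-MDSCs stood highest of the 6 groups at 124 ± 7.69 FPKM (SD, n = 2) and MS-275-treated M-MDSCs lowest at 59.5 ± 0.132 FPKM, while vehicle M-MDSCs and CXD101-treated PMN-MDSCs overlapped in the middle of that order.

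Ferritin was among the most abundant transcripts of both subsets, and in drug-treated PMN-MDSCs its heavy and light chains differed from vehicle in opposite directions. Ftl1 had the highest FPKM of all genes in both vehicle M-MDSC libraries and stood at rank 3 in both vehicle PMN-MDSC libraries. Fth1 (chr19:9980598-9985098, plus strand), the chain with ferroxidase activity, was at 8937 and 8533 FPKM in vehicle PMN-MDSCs, 16184 and 15936 FPKM after MS-275, and 11750 and 11239 FPKM after CXD101. It rose 1.84-fold after MS-275 (log2 fold change 0.88, SE 0.072, limma, Benjamini-Hochberg adjusted p = 5.88e-05), whereas the 1.32-fold difference after CXD101 passed the adjusted p but not the fold limit (log2 0.40, SE 0.072, limma adjusted p = 0.00340). With all libraries scaled to equal totals, which shifted the median gene by -0.35 after MS-275 in PMN-MDSCs, Fth1 stood 0.87 above that median but its own value of 0.53 was no longer called. The CXD101 value became 0.05 with equal totals and 0.00 under quantile normalization.

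Ftl1 (chr7:45457944-45459884, minus strand), the light chain that favors mineral core formation, was at 22282 and 20297 FPKM in vehicle PMN-MDSCs, 13984 and 15029 FPKM after MS-275, and 15546 and 16195 FPKM after CXD101. The drug-treated libraries were all below the vehicle libraries. The log2 fold changes of -0.55 (SE 0.085, limma, Benjamini-Hochberg adjusted p = 0.00115) and -0.42 (SE 0.085, limma adjusted p = 0.00539) passed the adjusted p but not the fold limit. Leaving out the vehicle library 2 or the MS-275 library 2 took the MS-275 value past the limit (-0.62 and -0.60), as did quantile normalization (-0.63), equal totals (-0.90) and totals without S100a8 and S100a9 (-0.60). The CXD101 value passed it with equal totals (-0.77).

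In M-MDSCs the ferritin chains moved less. Fth1 was at 3359 and 3503 FPKM under vehicle, 4696 and 4620 FPKM after MS-275, and 3064 and 3466 FPKM after CXD101. The MS-275 libraries were the highest of the subset, and the CXD101 and vehicle libraries overlapped. The log2 fold changes were 0.44 (SE 0.070, limma, Benjamini-Hochberg adjusted p = 0.00137) after MS-275, under the fold limit, and -0.07 (SE 0.070, limma adjusted p = 0.485) after CXD101, where the sign turned without CXD101 library 1 (0.015). Ftl1 was at 10489 and 11387 FPKM under vehicle, 9779 and 9574 FPKM after MS-275, and 10922 and 11453 FPKM after CXD101. Its log2 fold changes of -0.18 (95% interval -0.33 to -0.02) and 0.03 (-0.12 to 0.19) did not pass the adjusted p. Under quantile normalization the first was called (-0.62), and the sign of the second turned (-0.24), as it did without the vehicle library 1 or the CXD101 library 2.

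A ratio of the chains within 1 library is unchanged by any single scaling factor for that library, though not by quantile normalization, which moves each gene by its rank. The ratio of Fth1 to Ftl1 FPKM was 0.320 and 0.308 in vehicle M-MDSCs, 0.480 and 0.483 after MS-275, and 0.281 and 0.303 after CXD101. In PMN-MDSCs it was 0.401 and 0.420 under vehicle, 1.16 and 1.06 after MS-275, and 0.756 and 0.694 after CXD101. Heavy chain transcripts thus went from 0.411 ± 0.0137 of the light chain level (SD, n = 2) under vehicle to 1.11 ± 0.0685 of it in MS-275-treated PMN-MDSCs. The 3 PMN-MDSC groups did not overlap in this ratio, and with 2 libraries a group an exact permutation test could not reach the threshold and was not used. Meanwhile the sum of both chains was 30025 ± 1689 FPKM under vehicle, 30567 ± 563 FPKM after MS-275 and 27365 ± 97.7 FPKM after CXD101 in PMN-MDSCs, and 14369 ± 737, 14334 ± 199 and 14453 ± 660 FPKM in the same order in M-MDSCs. Annotated ferritin copies include the pseudogenes Ftl1-ps2, Ftl2-ps, Fth-ps2 and Fth-ps3, and Ftl1-ps1, which is annotated as protein coding. Read sharing with these copies was not tested. It leaves the absolute ferritin levels and the ratio of the chains uncertain, as does the overlap of Ftl1 with Gm22133 and Gm10252.

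**Figure D2:**
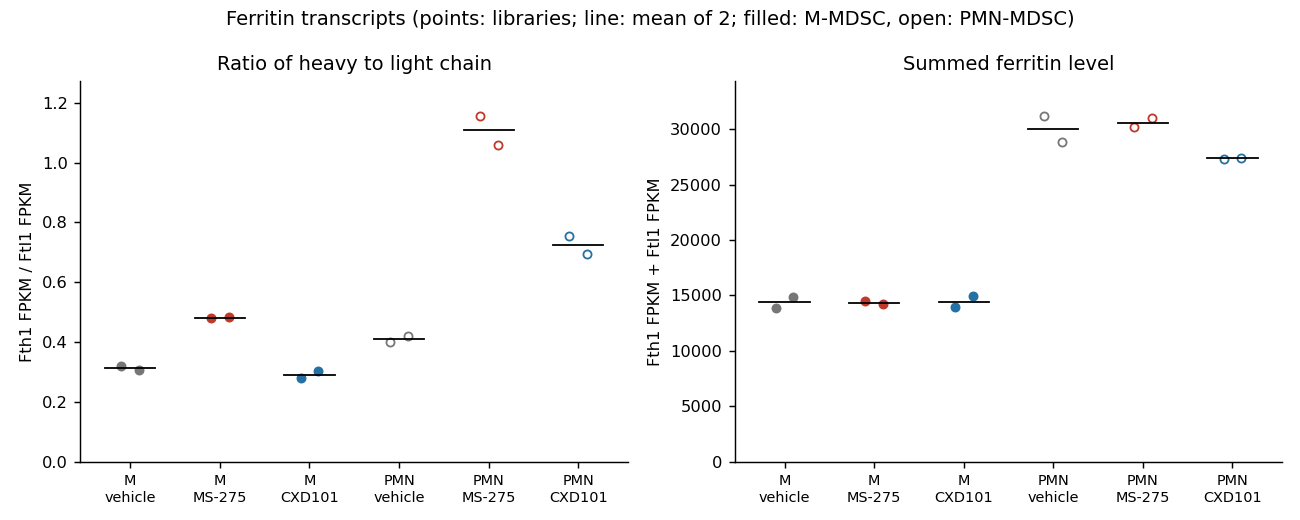
Left, ratio of Fth1 to Ftl1 FPKM; right, sum of Fth1 and Ftl1 in FPKM, in the 6 groups (points are libraries, lines the mean of 2, filled M-MDSCs, open PMN-MDSCs; both axes start at 0). The ratio exceeded 1 in both MS-275-treated PMN-MDSC libraries and was 0.483 or lower in every M-MDSC library, while the sums of a subset stayed within 13848 to 14919 FPKM in M-MDSCs and 27296 to 31219 FPKM in PMN-MDSCs.

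Ncoa4 (chr14:32159865-32179855, plus strand), the receptor that delivers ferritin to lysosomes so that its iron is released, was nearly level. It was at 73.0 and 70.6 FPKM in vehicle M-MDSCs, 68.1 and 70.0 FPKM after MS-275, and 77.2 and 78.5 FPKM after CXD101. In PMN-MDSCs it was at 78.7 and 86.7 FPKM, 88.6 and 85.7 FPKM, and 88.3 and 92.4 FPKM in the same order. No drug effect passed the adjusted p. The 95% interval of its log2 fold change against vehicle that reached furthest from 0, for CXD101 in PMN-MDSCs, ran from -0.04 to 0.29 around 0.13, which became -0.22 with libraries scaled to equal totals, -0.34 being the shift of the median gene in that comparison.

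Ferroportin separated the subsets. Slc40a1 (chr1:45908068-45926523, minus strand) was at 5.30 and 5.09 FPKM in vehicle M-MDSCs, 6.21 and 6.44 FPKM after MS-275, and 6.79 and 6.96 FPKM after CXD101. In PMN-MDSCs it was at 45.2 and 51.6 FPKM, 55.4 and 54.2 FPKM, and 56.3 and 58.7 FPKM in the same order. Under vehicle it was 7.95-fold higher in PMN-MDSCs (log2 fold change 2.99, SE 0.076, limma, Benjamini-Hochberg adjusted p = 1.12e-09). In each subset all drug-treated libraries were above both vehicle libraries, by log2 0.24 (SE 0.093) for MS-275 and 0.35 (SE 0.093) for CXD101 in M-MDSCs and by 0.18 (SE 0.080) and 0.25 (SE 0.080) in PMN-MDSCs, where scaling to equal totals turned both signs (-0.17 and -0.10). None reached the fold limit, and the CXD101 values alone passed the adjusted p (limma, Benjamini-Hochberg adjusted p = 0.0303 and 0.0384), which both lost when any 1 of the 4 libraries compared was left out, other than the PMN-MDSC vehicle library 2. The exporter therefore differed between subsets far more than between treatments.

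The transferrin receptor had its highest levels in drug-treated M-MDSCs. Tfrc (chr16:32608920-32632794, plus strand) was at 54.5 and 45.3 FPKM in vehicle M-MDSCs, 94.1 and 93.7 FPKM after MS-275, and 77.2 and 71.0 FPKM after CXD101. It rose 1.87-fold after MS-275 (log2 fold change 0.91, SE 0.089, limma, Benjamini-Hochberg adjusted p = 1.19e-04). The CXD101 value of 0.57 (SE 0.089, limma adjusted p = 0.00331) fell just short of the fold limit, which it passed without the vehicle library 1 (0.70), without the CXD101 library 2 (0.63), under quantile normalization (0.62) and with totals taken without S100a8 and S100a9 (0.59). In PMN-MDSCs Tfrc was at 39.9 and 37.4 FPKM under vehicle, 63.8 and 53.3 FPKM after MS-275, and 50.8 and 53.9 FPKM after CXD101. The drug-treated libraries again lay above the vehicle libraries, with log2 differences of 0.58 (SE 0.096, limma, Benjamini-Hochberg adjusted p = 0.00160) and 0.43 (SE 0.096, limma adjusted p = 0.00880) that passed the adjusted p but not the fold limit. The MS-275 value passed that limit without the vehicle library 1 (0.63) or the MS-275 library 2 (0.71), under quantile normalization (0.62), with median-of-ratios scaling (0.60) and with a pseudocount of 0.1 (0.59). With equal totals neither PMN-MDSC value passed the adjusted p (0.24, limma adjusted p = 0.0608, and 0.08, limma adjusted p = 0.469). Under vehicle Tfrc was lower in PMN-MDSCs by log2 0.35 (value -0.35, SE 0.10, limma adjusted p = 0.0103), within the fold limit. The ratio of ferroportin to transferrin receptor FPKM was 0.0660 to 0.112 in the 6 M-MDSC libraries and 0.868 to 1.38 in the 6 PMN-MDSC libraries.

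Slc11a1 (chr1:74375195-74386062, plus strand), known as NRAMP1, moves iron and manganese out of the phagosome and is known for resistance to intracellular bacteria. Whether the protein is functional in the mice used here was not examined, and transport was not measured. Slc11a1 RNA was at 131 and 138 FPKM in vehicle PMN-MDSCs, 61.8 and 62.8 FPKM after MS-275, and 59.6 and 60.1 FPKM after CXD101. In M-MDSCs it was at 9.15 and 10.1 FPKM under vehicle, 2.71 and 3.57 FPKM after MS-275, and 4.67 and 4.99 FPKM after CXD101. Among the 9 tested genes it alone was called for both drugs in both subsets, and no treated library overlapped its vehicle group. The log2 fold changes were -1.36 (SE 0.13) and -0.86 (SE 0.13) for MS-275 and CXD101 in M-MDSCs, and -1.10 (SE 0.062) and -1.16 (SE 0.062) in PMN-MDSCs (limma, Benjamini-Hochberg adjusted p from 1.11e-05 to 0.00236). Under vehicle it was 12.8-fold higher in PMN-MDSCs (log2 3.68, SE 0.096, limma adjusted p = 1.16e-09), so its level in drug-treated PMN-MDSCs remained above that of any M-MDSC group. Markers of other cells moved in both directions beside it. Of the neutrophil list, 7 rose and 3 fell after MS-275 and 7 rose and 1 fell after CXD101 in M-MDSCs, and 9 rose and 1 fell and 9 rose and none fell in PMN-MDSCs; the gelatinase Mmp9 fell in 3 of these 4 comparisons. Of the macrophage list, 1 rose and 7 fell and 2 rose and 3 fell in M-MDSCs, and 2 rose and 8 fell and 1 rose and 7 fell in PMN-MDSCs, with the complement gene C1qb falling in all 4. The part of either list in the Slc11a1 result was not tested.

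Slc11a2 (chr15:100387898-100425072, minus strand), the divalent metal transporter that carries iron across the endosome membrane, was low everywhere and scattered. It was at 9.0 and 7.79 FPKM in vehicle M-MDSCs, 8.12 and 9.35 FPKM after MS-275, and 7.59 and 7.99 FPKM after CXD101. The vehicle M-MDSCs overlapped both treated groups. In PMN-MDSCs it was at 6.53 and 4.55 FPKM under vehicle, 3.01 and 3.45 FPKM after MS-275, and 3.87 and 3.72 FPKM after CXD101. It fell after MS-275 (log2 fold change -0.61, SE 0.17, limma, Benjamini-Hochberg adjusted p = 0.0153), a call lost when either of 2 libraries was left out: without the PMN-MDSC vehicle library 1 the value was -0.39, and without the MS-275 library 1 it was -0.54, both under the limit. The CXD101 value of -0.43 (SE 0.17, limma adjusted p = 0.0652) did not pass, but was called with equal totals (-0.75) and without the vehicle library 2 (-0.65). Gm5475 overlaps Slc11a2 on the other strand, and how the counting used strand is not given in the sources used here.

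Haptoglobin set the subsets apart by its response rather than by its starting level. Hp (chr8:109575128-109579172, minus strand) was at 430.4 and 428 FPKM in vehicle M-MDSCs, 116 and 126 FPKM after MS-275, and 221 and 208 FPKM after CXD101. In M-MDSCs it fell 1.82 on the log2 scale after MS-275 (log2 fold change -1.82, SE 0.061, limma, Benjamini-Hochberg adjusted p = 1.41e-06) and by 0.996 after CXD101 (-0.996, SE 0.061, limma adjusted p = 4.42e-05). The 3 M-MDSC groups did not overlap. In PMN-MDSCs it was at 442 and 421 FPKM under vehicle, 495 and 564 FPKM after MS-275, and 524 and 498 FPKM after CXD101. The log2 differences there were 0.29 (SE 0.076, limma adjusted p = 0.0133) and 0.24 (SE 0.076, limma adjusted p = 0.0322), under the fold limit, and both turned negative (-0.06 and -0.11) with libraries scaled to equal totals. Under vehicle the subsets did not differ detectably (log2 0.01, 95% interval -0.15 to 0.16). Haptoglobin is known as a liver plasma protein and as a granule protein of neutrophils. Hepatocyte markers summed to 2.01 to 2.85 FPKM in vehicle M-MDSCs and 2.83 to 2.94 FPKM in treated M-MDSCs, most of it Afp and Apoa2, with Alb at or near 0. Of the neutrophil granule genes, Ltf fell in M-MDSCs after MS-275, from 73.3 and 102 FPKM to 29.1 and 31.8 FPKM, and Camp from 51.8 and 82.8 FPKM to 26.9 and 39.5 FPKM, while Ngp was at 470.1 and 544 FPKM and then 331 and 372 FPKM. After CXD101 in M-MDSCs none of these 3 was called. These 3 do not stand for the whole neutrophil list. Of its 13 genes tested in M-MDSCs, 7 rose and 3 fell after MS-275, and 7 rose and 1 fell after CXD101. The list summed higher in the treated M-MDSCs, S100a8 and S100a9 making up most of the sum. The part of hepatocyte or neutrophil RNA in the Hp result was not tested.

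Spic (chr10:88674772-88685015, minus strand), the transcription factor of iron-recycling red pulp macrophages, was hardly detected. It was at 0.179 and 0.280 FPKM in vehicle M-MDSCs, 0 and 0.205 FPKM after MS-275, and 0.457 and 0.387 FPKM after CXD101. Of the PMN-MDSC libraries, 1 vehicle library was at 0.212 FPKM and 1 MS-275 library at 0.123 FPKM, and the other 4 were listed at 0. No test was made at this level, and Cd163, the hemoglobin-haptoglobin receptor of macrophages, did not exceed a group mean of 0.433 FPKM.

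**Figure D3:**
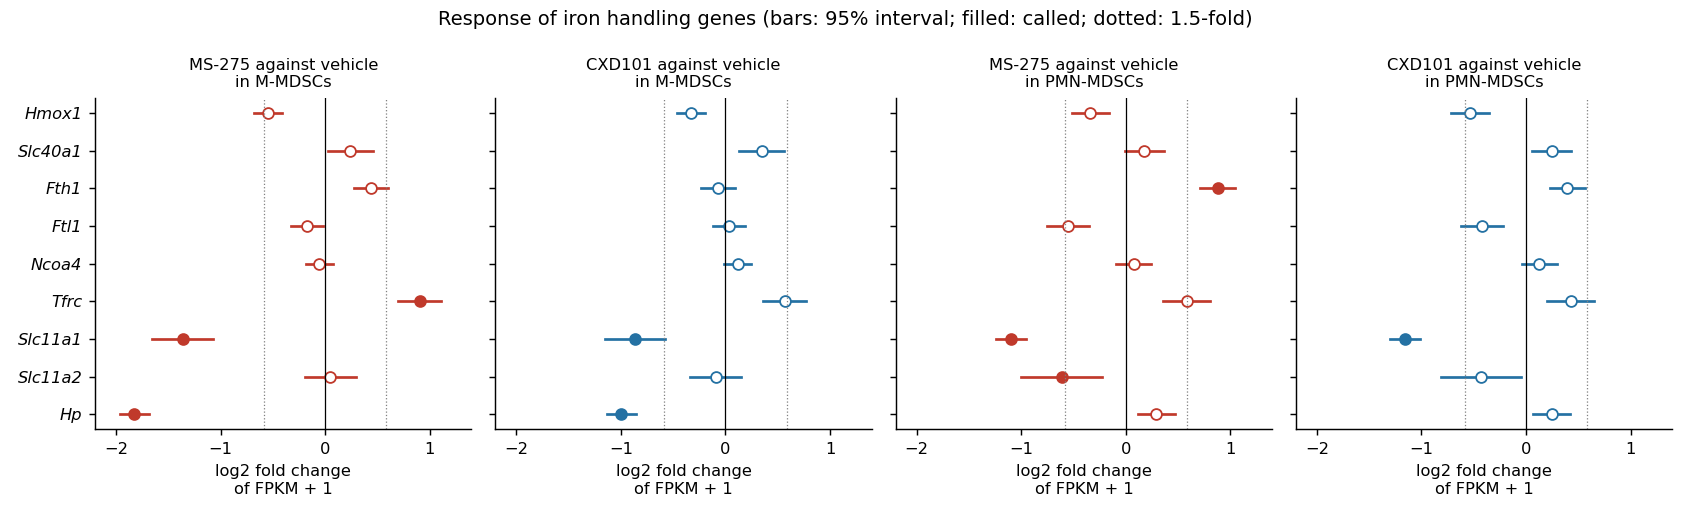
Log2 fold change of FPKM + 1 against vehicle for the 9 tested iron handling genes, with 95% intervals from limma; filled points were called and dotted lines mark a fold change of 1.5. Slc11a1 was called in all 4 panels, Hp in both M-MDSC panels, and Tfrc, Fth1 and Slc11a2 once each after MS-275. The values of Slc40a1, Ncoa4 and Hp in PMN-MDSCs turned sign when libraries were scaled to equal totals.

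MS-275 and CXD101 were given at the same dose and schedule as far as the methods state it, and their treated libraries were compared directly. In M-MDSCs 1 of 9 genes was called (4.40% of 11078 genes): Hp was lower after MS-275 than after CXD101 by log2 0.83 (value -0.83, SE 0.061, limma, Benjamini-Hochberg adjusted p = 3.95e-04). Fth1 was 0.52 higher (95% interval 0.35 to 0.68), Tfrc 0.34 higher (0.13 to 0.54), Slc11a1 differed by -0.50 (-0.79 to -0.21) and Hmox1 by -0.22 (-0.36 to -0.08). These 4 passed the adjusted p but not the fold limit, and 13.7% of all genes passed the adjusted p. Fth1 passed that limit without the CXD101 library 2 (0.60), as did Slc11a1 without the MS-275 library 2 (-0.65).

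In PMN-MDSCs none of the 9 genes was called between the drugs (0.805% of 11184 genes were called). Fth1 was 0.48 higher after MS-275 (95% interval 0.32 to 0.65, limma, Benjamini-Hochberg adjusted p = 0.0304), the only one of the 9 to pass the adjusted p (1.17% of all genes). The interval was -0.09 to 0.20 for Slc11a1, -0.13 to 0.22 for Hp, -0.07 to 0.38 for Tfrc and -0.33 to 0.07 for Ftl1. The ferritin ratio, 1.11 ± 0.0685 after MS-275 and 0.725 ± 0.0437 after CXD101 (SD, n = 2), did not overlap between the drugs.

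Whether a drug acted differently in the 2 subsets was tested as the PMN-MDSC response minus the M-MDSC response in 1 model of all 12 libraries. For MS-275, 2 of 9 genes were called (18.1% of 11662 genes). The response of Hp differed by log2 2.11 (SE 0.10, limma, Benjamini-Hochberg adjusted p = 1.02e-06). That of Slc11a2 differed by -0.67 (SE 0.20, limma adjusted p = 0.0298), a call lost without the PMN-MDSC vehicle library 1 (-0.45), the M-MDSC vehicle library 2 or MS-275 library 2 (-0.57 each), or the PMN-MDSC MS-275 library 1 (-0.59). For CXD101, 1 of 9 was called (13.9% of genes), Hp, by 1.24 (SE 0.10, limma adjusted p = 4.02e-05).

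The ferritin chains differed in response below the fold limit and in opposite senses. The Fth1 response differed by 0.44 for MS-275 (95% interval 0.22 to 0.65) and by 0.47 for CXD101 (0.25 to 0.69), and that of Ftl1 by -0.38 (-0.61 to -0.14) and -0.46 (-0.69 to -0.22). All 4 passed the adjusted p (limma, Benjamini-Hochberg adjusted p from 0.00632 to 0.0208), as did 31.0% of all genes for MS-275 and 24.2% for CXD101. The Fth1 values did not pass it with equal totals (0.05 and 0.13), under quantile normalization (0.00 and 0.02) or without a filter. The Ftl1 values were called with equal totals (-0.77 and -0.80), but quantile normalization, which also turned the vehicle difference of Ftl1 between subsets from 0.96 to -1.41, turned both Ftl1 values positive (1.22 and 0.37). For Slc11a1 and Tfrc the difference in response did not pass the adjusted p, with intervals of -0.03 to 0.56 and -0.64 to -0.01 for MS-275. With equal totals Tfrc was called for MS-275 (-0.71), and Slc11a1 (-0.59) and Slc11a2 (-0.65) for CXD101.

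Between the vehicle groups, both ferritin chains were higher in PMN-MDSCs, Fth1 by 2.55-fold (log2 1.35, SE 0.069, limma, Benjamini-Hochberg adjusted p = 6.62e-08) and Ftl1 by 1.95-fold (log2 0.96, SE 0.075, limma adjusted p = 1.29e-06), the latter reversing as given above. Hmox1 was 0.50 higher on the log2 scale, Ncoa4 0.20 higher and Slc11a2 differed by -0.54, all inside the fold limit, which Slc11a2 passed with equal totals (-0.73), with a pseudocount of 0.1 (-0.61) and without the M-MDSC vehicle library 2 (-0.63) or the PMN-MDSC vehicle library 1 (-0.76). With equal totals, which shifted the median gene by -0.17, Slc40a1 and Slc11a1 stood 3.07 and 3.72 above that median and Fth1 and Ftl1 1.33 and 0.95 above it.

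The wider iron and heme network was followed through 61 other genes, of which 46 were tested in M-MDSCs and 43 in PMN-MDSCs. After MS-275 in M-MDSCs 5 were called higher and 6 lower, 23.9% against 17.5% of all genes, with a median log2 fold change of -0.10 against -0.06. These counts include Tfr2 and Cp, which met the filter of 1 FPKM in M-MDSCs only through the group where each was high, so their values are given as a description. Without them 4 rose and 5 fell. Tfr2, a transferrin receptor that senses iron, was at 0.146 and 0 FPKM under vehicle, 2.27 and 2.51 FPKM after MS-275, and 0.837 and 0.949 FPKM after CXD101. The ferroxidase ceruloplasmin (Cp), which works with ferroportin, was at 4.80 and 3.88 FPKM, 0.327 and 0.145 FPKM, and 0.546 and 0.456 FPKM in the same order. The heme exporter Abcg2 rose by 1.10 (SE 0.12) and mitoferrin 1 (Slc25a37), which brings iron into mitochondria, by 1.09 (SE 0.082). The ferrireductase Steap3 fell by 0.94 (-0.94, SE 0.11) and iron regulatory protein 1 (Aco1) by 0.92 (-0.92, SE 0.072). After CXD101 in M-MDSCs 3 were called higher and 4 lower (15.2% against 8.13%), or 2 and 3 without Tfr2 and Cp, and Abcg2 rose by 0.88 (SE 0.12).

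In PMN-MDSCs 3 of the 43 rose and 6 fell after MS-275 (20.9% against 28.7% of all genes), and 2 rose and 3 fell after CXD101 (11.6% against 21.4%), so calls were not more frequent than in the rest of the transcriptome. Lipocalin 2 (Lcn2), which withholds iron from bacteria by binding siderophores, rose by 1.58 (SE 0.082) and 1.70 (SE 0.082) for MS-275 and CXD101. Lcn2 is also a neutrophil granule protein, and the neutrophil marker sum was higher in the same libraries. Its part in the Lcn2 values was not tested. Slc25a37 rose by 1.08 (SE 0.089) and 0.74 (SE 0.089). Steap3, which reduces iron in the endosome, had values of -1.59 (SE 0.18) and -1.21 (SE 0.18), Aco1 of -1.0 (SE 0.12) and -0.82 (SE 0.12), and biliverdin reductase A (Blvra), the step after heme oxygenase, of -1.38 (SE 0.086) and -0.91 (SE 0.086). Hfe had a value of -1.01 (SE 0.20) after MS-275.

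Between the vehicle groups 13 of 46 of these genes were higher in PMN-MDSCs and 11 lower, 52.2% against 34.0% of all genes. Fbxl5, an iron sensor that marks an iron regulatory protein for degradation, was higher by 2.44 (SE 0.079), Lcn2 by 2.36 (SE 0.073) and transferrin (Trf) by 1.36 (SE 0.057), while Cp differed by -1.45 (SE 0.15) and Steap3 by -1.24 (SE 0.15). Of 10 genes induced by oxidants, which share regulation with Hmox1 and Fth1, 4 were higher in PMN-MDSCs and none lower (40% against 34.0% of all genes), led by the cystine transporter Slc7a11 at 2.65 (SE 0.11). After MS-275, 1 of the 10 rose and 2 fell in each subset, 30% against 17.5% of all genes in M-MDSCs and 28.7% in PMN-MDSCs. Slc7a11 fell in all 4 comparisons with vehicle, with values of -0.85 and -0.90 in M-MDSCs and -0.81 and -1.37 in PMN-MDSCs for MS-275 and CXD101, whereas Nqo1 rose in PMN-MDSCs by 1.16 and 1.02. After CXD101, 0 of the 10 rose and 1 fell in M-MDSCs (10% against 8.13%), and 1 rose and 3 fell in PMN-MDSCs (40% against 21.4%). Of the 98 calls made for the wider network and the oxidant-response genes over all comparisons, 98 kept their sign and 79 were called under each of 4 other scalings; among those named here, scaling to equal totals ended the call of Slc25a37 after CXD101 in PMN-MDSCs (0.41).

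The wider network also differed in its responses between the subsets. For MS-275, 6 of 46 genes had a higher response in PMN-MDSCs and 4 a lower one (21.7% against 18.1% of all genes), and for CXD101 3 and 5 (17.4% against 13.9%). For MS-275, Lcn2 and Trf differed by 1.37 (SE 0.10) and 1.35 (SE 0.085) and Abcg2 by -1.49 (SE 0.26). Cp differed by 1.44 (SE 0.21), a gene that reached 1 FPKM in vehicle libraries only. Of the 10 oxidant-response genes, 2 were called in each direction for MS-275 (40% against 18.1%), and 1 higher and 3 lower for CXD101 (40% against 13.9%). Between the drugs, no gene of either list was called other than Tfr2 in M-MDSCs, which only the MS-275 libraries carried past the filter.

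**Figure D4:**
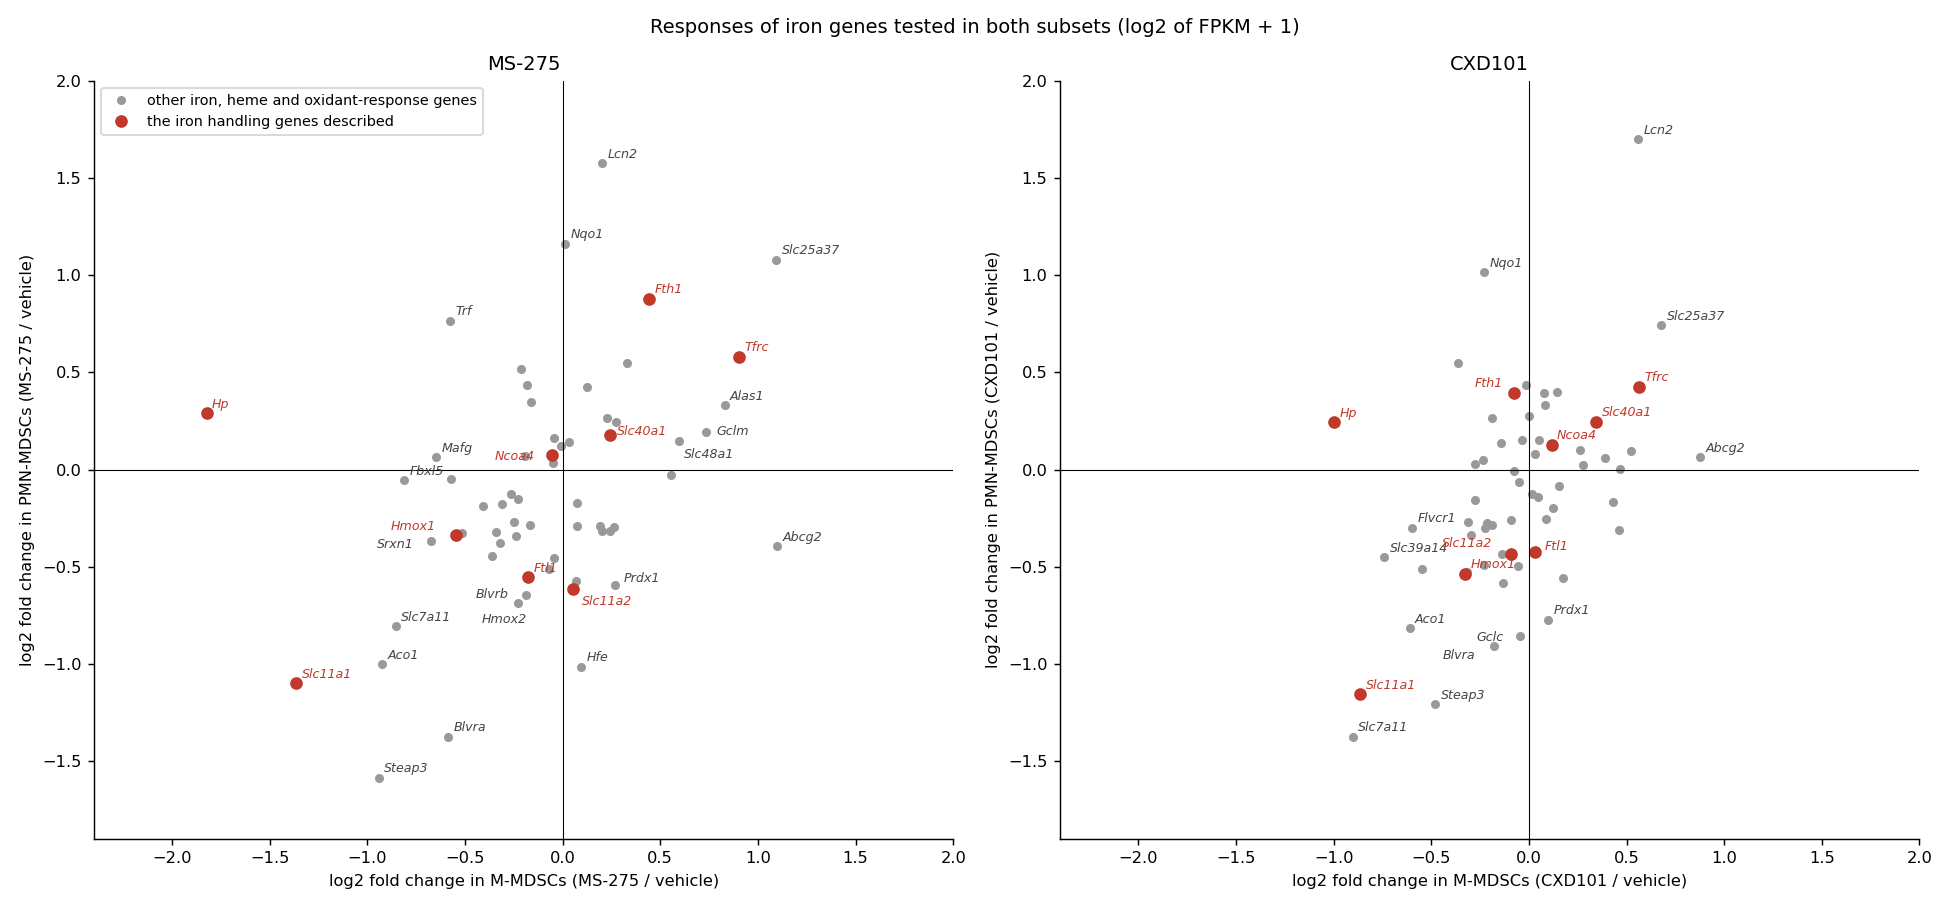
Log2 fold change of FPKM + 1 against vehicle in M-MDSCs (horizontal) and PMN-MDSCs (vertical) for MS-275 (left) and CXD101 (right); each point is a gene tested in both subsets, red for the iron handling genes described, grey for the other iron, heme and oxidant-response genes, of which those called in either subset are named. Slc11a1 lay low on both axes and Hp low in M-MDSCs alone, the vertical values of Hp, Slc40a1 and Ncoa4 turning negative with libraries scaled to equal totals.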

How the data were processed

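RNA-seq values of sorted M-MDSCs and PMN-MDSCs were analyzed in 12 libraries, 6 groups of 2, grouped by the submitters' labels. The authors deposited 1 table of FPKM values per library, already scaled by transcript length and library size. The submitters' processing notes name TopHat2 2.1.1, Bowtie2 2.2.8, SAMtools 0.1.18, Cuffdiff 2.2.1 and mm10; the strand setting is not given in the sources used here. Reads were 101 bases long, and the RNA extraction kit is named differently in the labels and the methods (miRNeasy Micro and Mini). Counts were not used here. Low-value steps gave an estimated 8.22 to 10.6 M reads in M-MDSCs and 6.84 to 8.04 M in PMN-MDSCs, assuming annotated transcript lengths, and no interval was derived from them.

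Values were transformed as log2(FPKM + 1), a pseudocount of 1, and fitted with limma 3.58.1 (R 4.3.3) and an intensity trend. Genes with 1 FPKM in at least 2 libraries were kept. The 6 libraries of a subset shared 1 model, and comparisons across subsets used all 12. Genes were called at a Benjamini-Hochberg adjusted p under 0.05 and a fold change above 1.5. Tested on simulated data with 200 genes changed by log2 1, 186 were called in the MS-275 comparison of M-MDSCs (10919 genes, 2 false calls) and 172 in that of PMN-MDSCs (11064 genes, 3 false calls). The changed genes of that simulation were drawn only from genes with a mean level above that of the filter, with independent normal noise. Its shares therefore do not carry over to genes near the filter. Alternatives were the pseudocount, filter, scaling, trend, samples in the fit, a replicate block, the fold limit and leaving out each library.

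The 10 genes, the 61 other iron and heme genes, the 10 oxidant-response genes and the marker lists were chosen with earlier results of these data known. All 10 genes are given. Of the 2 other gene lists, at most 6 called genes were named per comparison, by size of change; the 3 genes with the most similar pattern are given for 4 of the 10. Of 146 listed symbols, 2 were not matched and 3 were found under older symbols. Hairpins were searched in UTRs of GENCODE vM21 transcripts.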

Additional observations from a re-analysis of the deposited data

Results flagged for a closer look

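Hp and Slc11a2 stood out because the same drug had different effects in the 2 subsets by the test of that difference. For Hp the PMN-MDSC response minus the M-MDSC response was 2.11 on the log2 scale for MS-275 (SE 0.10, limma, Benjamini-Hochberg adjusted p = 1.02e-06) and 1.24 for CXD101 (SE 0.10, limma adjusted p = 4.02e-05). In M-MDSCs both treated groups were below both vehicle libraries, and Hp was called lower for each drug. In PMN-MDSCs the treated libraries were above the vehicle libraries, but Hp was not called there. Its PMN-MDSC values turned negative with libraries scaled to equal totals (-0.06 for MS-275 and -0.11 for CXD101). For Slc11a2 the difference was -0.67 for MS-275 (SE 0.202, limma adjusted p = 0.0298), and it was no longer called when any 1 of 4 libraries was left out.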

How the results depend on the processing

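With equal totals, 4 genes were called after CXD101 in PMN-MDSCs and 4 in each difference of responses. It shifted the median gene by -0.35 and -0.34 (log2) after MS-275 and CXD101 in PMN-MDSCs and gave 1031 higher and 3648 lower calls over all genes for MS-275 against 1628 and 1586 in the reported fit. For CXD101 there it gave 801 and 3261 against 1327 and 1067, between the vehicle groups 1644 and 3036 against 2009 and 1959, and for the differences of responses 390 and 3181 against 1009 and 1106 (MS-275) and 382 and 2570 against 852 and 768 (CXD101). It turned Slc40a1, Ncoa4 and Hp in PMN-MDSCs to -0.17, -0.27 and -0.060 after MS-275 and to -0.10, -0.22 and -0.11 after CXD101, and Hp between the vehicle groups to -0.17. In the differences of responses it turned Hmox1, Ncoa4 and Slc11a1 to -0.18, -0.26 and -0.024 for MS-275 and Ncoa4 to -0.33 for CXD101.

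Quantile normalization called 2 genes between the drugs in M-MDSCs, 5 after MS-275 in PMN-MDSCs and 1 between the drugs there. It turned Ncoa4 after MS-275 in M-MDSCs (0.093), Ftl1 after CXD101 in M-MDSCs (-0.24), Hp between the drugs in PMN-MDSCs (-0.029) and Ftl1 and Hp between the vehicle groups (-1.41 and -0.073). In the differences of responses it turned Slc40a1 (0.011) and Ftl1 (1.22) for MS-275 and Ftl1 (0.37) and Ncoa4 (-0.025) for CXD101. Totals without S100a8 and S100a9 turned Ncoa4 after MS-275 in M-MDSCs (0.016), Hp between the vehicle groups (-0.019) and Ncoa4 in the difference for CXD101 (-0.033), and gave 723 higher and 1475 lower calls for the MS-275 difference. A pseudocount of 0.1 called 2 genes between the drugs in M-MDSCs. A fold limit of 2 left 0 called after CXD101 in M-MDSCs, 0 between the drugs there, 1 after MS-275 in PMN-MDSCs and 1 in the difference for MS-275, where no filter also left 1.

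Leaving out 1 library gave 1 to 2 called genes between the drugs in M-MDSCs, 2 to 5 after MS-275 and 1 to 3 after CXD101 in PMN-MDSCs, and 1 to 2 in the difference for MS-275. Ranges that crossed 0 were -0.042 to 0.14 for Slc11a2 after MS-275 and, after CXD101, -0.16 to 0.015 for Fth1 and -0.026 to 0.093 for Ftl1 in M-MDSCs, -0.047 to 0.14 for Hp between the drugs in PMN-MDSCs, -0.027 to 0.041 for Hp between the vehicle groups, and -0.16 to 0.032 for Slc40a1 (MS-275) and -0.058 to 0.081 for Ncoa4 (CXD101) in the differences of responses. None of these values was called in the reported fit. The causes of these changes were not tested. The other 138 counts stayed close in size to the reported count, which does not mean that the same genes were called. After MS-275 in PMN-MDSCs, for example, 3 iron genes were called in the reported fit and 4 with equal totals. There Fth1 lost its call, and Hmox1 and Ftl1 gained one. Of the single values, 1333 kept their direction and side of the threshold, 35 gained a call and 16 lost one.

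Same-numbered libraries share only a number: their deviations correlated at -0.13 to 0.18. With the replicate number as a block, the iron genes called were 3 and 2 in M-MDSCs and 3 and 1 in PMN-MDSCs after MS-275 and CXD101, and no call among them changed; over all genes the calls between the drugs in PMN-MDSCs went from 90 to 63. That comparison, all genes taken, was the least stable, with 4 calls without a filter, 35 without the trend, 151 with all 12 libraries in the model and 10 to 23 with 1 treated library left out. FPKM of at least 5 lowered the calls in M-MDSCs from 1934 to 1269 (MS-275), from 901 to 591 (CXD101) and from 487 to 268 (between the drugs, 309 and 308 without either MS-275 library), and equal totals raised those after CXD101 in PMN-MDSCs from 2394 to 4062. A fold limit of 2 left 720, 261 and 134 in M-MDSCs and 1278, 854 and 40 in PMN-MDSCs (MS-275, CXD101 and between the drugs; 3214, 2394 and 90 as reported in PMN-MDSCs), 1543 of 3968 between the vehicle groups, and 694 of 2115 and 474 of 1620 for the differences of responses. Depth limits Spic, which was too low to test.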

Other observations

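The genes with the most similar pattern were sought for 4 of the iron genes over the 12 libraries, among 9308 genes with a mean of at least 5 FPKM in at least 1 group. For Slc40a1 they were Gja5 (Pearson r = 0.997 of log2(FPKM + 1)), Pbxip1 (0.997) and Dnajc5 (0.997). Slc11a1 was closest to the chemokine Ccl6 (0.997), Myo9b (0.997) and Tnfaip2 (0.997), Fth1 to Pag1 (0.995), the autophagy receptor Sqstm1 (0.992) and Snx18 (0.991), and Hp to Cdc42se1 (0.982), Tln1 (0.979) and Myl6 (0.970). The 12 libraries share 6 groups and 2 subsets, and these values are descriptions only.

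Markers of eosinophils summed to 22.2 to 23.0 FPKM in vehicle M-MDSCs, 156 to 179 FPKM after MS-275 and 122 to 134 FPKM after CXD101, and to 264 to 365 FPKM in PMN-MDSCs. Among the macrophage markers, Mrc1 was at 79.9 and 81.3 FPKM in vehicle M-MDSCs and 16.4 and 13.5 FPKM after MS-275, a gene chosen after its values were seen. The hepcidin gene Hamp was listed at 0 in all 6 M-MDSC libraries.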
